A study of Mus musculus with 4 samples.

Results

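Transcript levels of 10 genes that carry the TGF-beta, activin and BMP signals were examined in Langerhans cells, which sample antigen within the epidermis. They were the ligand gene Tgfb1, the integrin genes Itgav and Itgb8, the receptor genes Tgfbr1, Tgfbr2, Acvr1b and Bmpr1a, the signal transducer genes Smad3 and Smad7, and the receptor tyrosine kinase gene Axl. The genes were taken by symbol, 10 of the 24441 symbols in the tables, and none was chosen by a rule on its level. Earlier results of these data were known when they were chosen. RNA was sequenced from cells sorted out of the epidermis of mice at 4 weeks of age. The Tfam cKO group carried a CD11c-Cre transgene together with floxed alleles of Tfam, the gene for a mitochondrial DNA-packaging and transcription factor, and the WT group was labelled wild type, with no statement of whether it carried the transgene or the floxed alleles. Cre was under control of the CD11c (Itgax) promoter, which is active in other CD11c-positive cells besides Langerhans cells. Each group had 2 libraries, numbered 1 and 2, and the labels do not say which mice, or how many, went into a library. The p-values therefore measure only the spread between these libraries, which may be technical.

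TGF-beta is secreted in a latent form, wrapped in its own propeptide, and is set free by integrins such as those built from the Itgav and Itgb8 or Itgb6 products. Free TGF-beta assembles the type II receptor encoded by Tgfbr2 with the type I receptor encoded by Tgfbr1, which phosphorylates SMAD2 and SMAD3. BMPs use other type I receptors, among them the product of Bmpr1a, and SMAD1, SMAD5 and SMAD9. Mouse Langerhans cells need TGF-beta signalling to form and to stay in the epidermis, and BMP7 signalling through BMPR1A has been described in their differentiation.

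The labelled cell type was checked first. Cd207, the langerin gene, was at 1528 and 1374 FPKM (a fragment count scaled by transcript length and library size) in Tfam cKO, against 2098 and 1495 FPKM in WT. Epcam, an adhesion gene of Langerhans cells and keratinocytes, was at 192.4 and 179.6 FPKM, against 199.6 and 182.8 FPKM. The 7 Langerhans cell markers, all detected, summed to 21158 and 16604 FPKM in Tfam cKO, against 17728 and 17887 FPKM in WT, and the groups overlapped. Most of this sum came from the MHC class II pathway genes Cd74 and H2-Aa. Cd74 was at 12340 and 9264 FPKM in Tfam cKO, against 9289 and 10360 FPKM in WT, and H2-Aa at 4579 and 3771 FPKM, against 4435 and 4156 FPKM. Of the 7, Mfge8, which encodes a bridging protein for apoptotic cells, was separate upward, at 2226 and 1769 FPKM in Tfam cKO, against 1459 and 1392 FPKM in WT. Itgax, whose promoter drives Cre, was separate downward, at 43.9 and 41.0 FPKM, against 47.8 and 52.7 FPKM, and neither passed the test (limma adjusted p = 0.851 and 0.899). Keratinocyte transcripts stood beside it, and Krt5, a keratin gene of basal keratinocytes, was at 4480 and 3815 FPKM in Tfam cKO, against 4598 and 3003 FPKM in WT. The 8 keratinocyte markers, all detected, summed to 13398 and 11739 FPKM in Tfam cKO, against 13292 and 8992 FPKM in WT, so that the groups overlapped and WT 2 was lowest. Relative to Cd207, however, Krt5 was 2.93 and 2.78 in Tfam cKO, against 2.19 and 2.01 in WT, and this ratio of 1 gene pair did separate the groups. The shares of the full marker sets in total FPKM did not. The 8 keratinocyte markers made up 3.39% and 3.12% in Tfam cKO, against 3.59% and 2.65% in WT. The 7 Langerhans cell markers made up 5.35% and 4.42%, against 4.79% and 5.28%. The 6 T cell markers summed to 150 and 213.3 FPKM in Tfam cKO, against 213.4 and 239 FPKM in WT, a narrow separation downward. Of the 6, 1 had a log2 fold change above 0. Cd3g was separate downward, at 36.9 and 70.1 FPKM in Tfam cKO, against 79.2 and 85.1 FPKM in WT (limma adjusted p = 0.790). Thy1 was separate upward, at 67.0 and 66.8 FPKM, against 65.6 and 66.3 FPKM. The 6 macrophage markers summed to 226 and 151 FPKM in Tfam cKO, against 118 and 116 FPKM in WT, with Cd163 listed at 0 in every library and Mrc1 at no more than 0.13 FPKM. Adgre1, a surface receptor gene that Langerhans cells also express, supplied much of the sum and overlapped, at 97.8 and 76.8 FPKM in Tfam cKO, against 91.5 and 80.7 FPKM in WT. The complement genes C1qa, C1qb and C1qc were separate upward, with log2 fold changes of 1.42, 2.10 and 2.07 (limma adjusted p = 0.231, 0.149 and 0.115). C1qa was at 88.5 and 55.2 FPKM in Tfam cKO, against 22.1 and 29.3 FPKM in WT. The 4 melanocyte markers summed to between 1.49 and 5.35 FPKM, the 4 mast cell markers were listed at 0, and those of fibroblasts and of endothelium each summed to at most 1.07 FPKM. The part of other cell types in the values below was not tested, and in bulk RNA fewer cells of a type and less RNA per cell cannot be told apart. Tfam, the targeted gene, was at 1.65 and 1.53 FPKM in Tfam cKO, against 3.17 and 1.61 FPKM in WT. It did not separate the groups (limma adjusted p = 0.899), so each direction below rests on the labels. A value over the whole gene can hold fragments from outside the deleted part. Y-linked transcripts were listed at 0 in both libraries numbered 1 and summed to 21.7 FPKM in Tfam cKO 2 and 58.8 FPKM in WT 2. Xist was at 39.0 and 45.6 FPKM in Tfam cKO, against 64.6 and 5.38 FPKM in WT, so that WT 2 stood apart and the libraries numbered 2 did not match in sex-linked transcripts. Differences within each number are given below as values, without the number being known to mark a shared source.

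**Figure D1:**
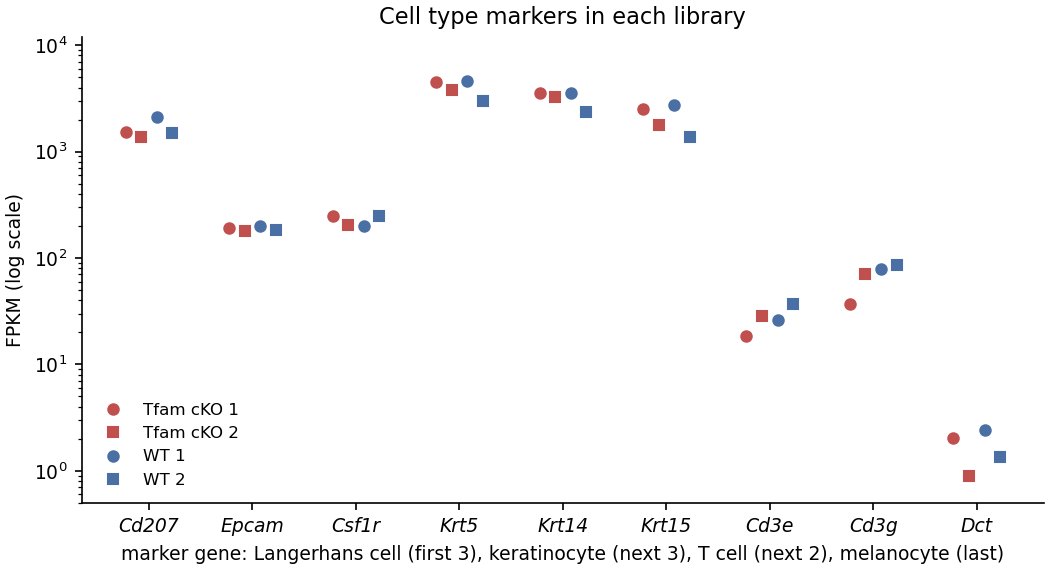
Levels of marker genes (FPKM, log scale) in the 2 Tfam cKO libraries (red) and the 2 WT libraries (blue), with circles for number 1 and squares for number 2. Krt5 and Krt14 lie above Cd207 in all 4 libraries, and Dct, a melanocyte marker, lies below 2.5 FPKM.

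The 10 genes fell into 3 ranges of level per length. Tgfb1, Tgfbr2 and Smad7 had group means between 28.7 and 37.3 FPKM, and 83.5% to 86.5% of the tested genes lay below their means over the 4 libraries. Tgfbr1, Itgav, Acvr1b, Axl, Smad3 and Bmpr1a had group means between 6.25 and 11.5 FPKM, near the median of 8.41 FPKM over all tested genes. Itgb8 was at the limit of detection. Within the upper range the order of Tgfb1, Tgfbr2 and Smad7 differed between libraries. In Tfam cKO Tgfbr1 lay above every other gene of the middle range in both libraries, whereas in WT its 8.87 and 6.56 FPKM lay below the value of Acvr1b in either library. Each value of the 9 detected genes rested on an effective 351 to 2769 fragments, read from the width of the Cufflinks 95% interval, so that counting error was small beside the spread between libraries for several of them. The intervals of the WT libraries did not overlap each other for 5 of the 10 genes (Tgfb1, Tgfbr1, Itgav, Smad7 and Bmpr1a), and those of the Tfam cKO libraries for 2 (Tgfbr2 and Smad7).

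None of the 9 genes with a mean of at least 1 FPKM passed the test between Tfam cKO and WT (limma on log2(FPKM + 1), adjusted over 10910 genes at 0.05), where 0.0183% of all tested genes were called higher and 0 lower. At an unadjusted p below 0.05, 2 of the 9, Tgfbr1 and Smad3, were higher in Tfam cKO and 0 were lower, against 5.01% higher and 1.19% lower, or 6.21% in either direction, over all tested genes. That asymmetry depended on the scaling, since 281 genes were higher and 293 lower with libraries rescaled to equal totals and 338 and 245 after quantile normalization, in place of 547 and 130. Both Tfam cKO libraries lay above both WT libraries for 4 of the 9 (Tgfbr1, Tgfbr2, Itgav and Smad3) and below for 0, whereas this held for 25.4% and 9.75% of all tested genes. The median log2 fold change of the 9 was 0.16, beside 0.07 over all tested genes. It was 0.05 with equal totals, beside -0.04 over all genes, 0.08 after quantile normalization, beside -0.01, and 0.29 without WT 1, beside 0.13. Rescaling the libraries to equal totals moved the median of all genes by -0.11 and left the same 4 genes with separate groups. The share of all tested genes with separate groups was not counted under that scaling, so this count has nothing beside it. Rescaling changed the split of the 9 genes above and below 0 from 8 and 1 as deposited to 5 and 4. Over all genes the share above 0 was 43.2% in place of 65.2%.

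**Figure D2:**
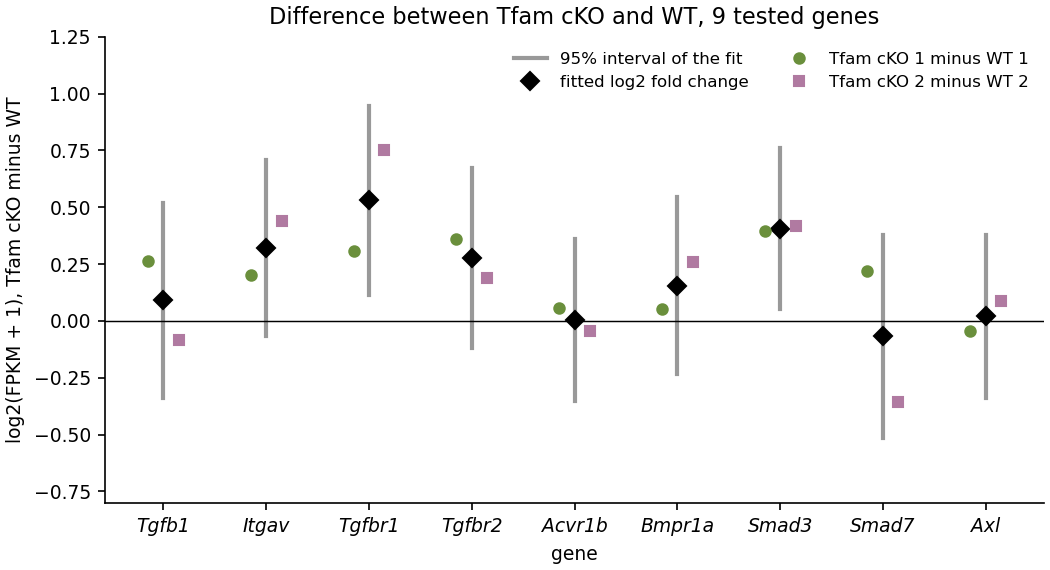
Difference in log2(FPKM + 1) between Tfam cKO and WT for the 9 tested genes. Black diamonds are the fitted log2 fold changes with their 95% interval in grey, green circles Tfam cKO 1 minus WT 1 and purple squares Tfam cKO 2 minus WT 2. The interval leaves out 0, before adjustment, for Tgfbr1 and Smad3, and the green and purple points lie on opposite sides of 0 for Tgfb1, Acvr1b, Smad7 and Axl.

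Tgfb1 encodes the latent ligand, and mouse Langerhans cells are one source of it. Its listed position was chromosome 7, 26472021 to 26490096, in coordinates whose build is unresolved, as for the other genes below. By these coordinates only 2 of the 10 genes overlapped the GRCm38 gene of the same name. Tgfb1 was at 36.9 and 37.7 FPKM in Tfam cKO, against 30.6 and 40.0 FPKM in WT. The Tfam cKO libraries lay between the WT libraries, whose difference of 1.31-fold was larger than that between the group means (37.3 ± 0.549 and 35.3 ± 6.64 FPKM, SD, n = 2 each). The log2 fold change was 0.09 (SE 0.19, limma adjusted p = 0.977), with a 95% interval of -0.34 to 0.52, and it was -0.03 after rescaling to equal totals. Tgfb1 made up 90.8% and 92.5% of the summed FPKM of the 3 TGF-beta genes in Tfam cKO, against 92.5% and 93.9% in WT. Tgfb3 was at 2.59 and 2.51 FPKM in Tfam cKO, against 1.87 and 1.90 FPKM in WT, and Tgfb2 at 1.14 and 0.528 FPKM, against 0.616 and 0.674 FPKM. The ligand transcript was therefore almost entirely Tgfb1 in all 4 libraries.

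The integrin that frees TGF-beta 1 from its propeptide was represented unequally. Itgav, which encodes the alpha-v chain (chromosome 2, 83564554 to 83647074), was at 9.85 and 9.58 FPKM in Tfam cKO, against 8.42 and 6.81 FPKM in WT. Both Tfam cKO values lay above both WT values, and each of the 4 pairs of Cufflinks intervals between the groups was apart. The log2 fold change was 0.32 (SE 0.17, limma adjusted p = 0.858), and Tfam cKO 1 exceeded WT 1 by 0.20 and Tfam cKO 2 exceeded WT 2 by 0.44 on that scale. Itgb8, which encodes the beta chain that pairs with alpha-v alone (chromosome 12, 120401276 to 120476749), was at 0.0291 and 0.0824 FPKM in Tfam cKO, against 0.0257 and 0.0189 FPKM in WT. These values stood for 1 and 5 fragments in Tfam cKO and for 1 and 1 in WT, and although the groups did not overlap, 3 of the 4 libraries held a single fragment. The depth-scaled ratio of the 6 fragments in Tfam cKO to the 2 in WT was 2.90, with an exact 95% interval for Poisson counts of 0.518 to 29.4, which covers counting error only and includes 1, and with so few fragments Itgb8 was not tested.

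Of the 5 beta chains that can pair with alpha-v, Itgb1 supplied most of the transcript. It was at 88.2 and 81.9 FPKM in Tfam cKO, against 77.2 and 56.3 FPKM in WT, and made up 91.2% and 89.2% of the summed beta chain FPKM in Tfam cKO, against 92.7% and 88.0% in WT. The beta-1 chain also pairs with many alpha chains other than alpha-v. Itgb6, the other TGF-beta-activating partner and a gene of epithelial cells, was chosen after its values were seen. It was at 4.65 and 4.28 FPKM in Tfam cKO, against 2.24 and 2.89 FPKM in WT. Its groups were separate, with a log2 fold change of 0.62 (SE 0.18), and it did not pass over all genes (limma adjusted p = 0.581, unadjusted 0.00847). Of the 8 keratinocyte markers, 2 had separate groups upward and 1 downward. Sfn was at 2231 and 1833 FPKM in Tfam cKO, against 1593 and 1353 FPKM in WT, and Dsp at 142 and 141 FPKM, against 139 and 117 FPKM. Krt1 went downward, at 143 and 184 FPKM in Tfam cKO, against 243 and 186 FPKM in WT. The summed keratinocyte markers overlapped between the groups, whereas the ratio of Krt5 to Cd207 separated them. The part of keratinocyte transcripts in the Itgb6 and Itgav values was not tested.

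Among the receptors the largest difference was that of Tgfbr1, the type I receptor of TGF-beta (chromosome 4, 47366094 to 47427796). Tgfbr1 was at 11.2 and 11.7 FPKM in Tfam cKO, against 8.87 and 6.56 FPKM in WT. The Tfam cKO values lay close together and above both WT values, which differed by 1.35-fold. The log2 fold change was 0.53 (SE 0.18, 95% interval 0.11 to 0.95), and Tgfbr1 did not pass over all genes (limma adjusted p = 0.663, unadjusted 0.0185). Tfam cKO 1 exceeded WT 1 by 0.31 and Tfam cKO 2 exceeded WT 2 by 0.75 on the log2 scale. The log2 fold change was 0.72 without WT 1, 0.34 without WT 2, 0.56 without Tfam cKO 1 and 0.50 without Tfam cKO 2.

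Tgfbr2, the type II receptor that binds TGF-beta first (chromosome 9, 115996813 to 116084481), was the most abundant receptor transcript of the 4. It was at 38.1 and 32.04 FPKM in Tfam cKO, against 29.4 and 28.0 FPKM in WT. The groups were separate, but the intervals of Tfam cKO 2 and WT 1 overlapped, and the log2 fold change was 0.28 (SE 0.17, limma adjusted p = 0.888). Per length, Tgfbr2 exceeded Tgfbr1 3.39- and 2.73-fold in Tfam cKO, against 3.31- and 4.27-fold in WT, with no separation of the groups.

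Acvr1b and Bmpr1a, the type I receptor genes of the activin and BMP branches, did not separate the groups. Acvr1b (chromosome 15, 101004556 to 101043032) was at 9.71 and 9.47 FPKM in Tfam cKO, against 9.31 and 9.79 FPKM in WT. Its log2 fold change was 0.01, with SE 0.16 and a limma adjusted p of 0.996, and had a 95% interval of -0.35 to 0.36, so that a change of up to 1.29-fold upward lay within the interval. Bmpr1a (chromosome 14, 35224254 to 35315732) was at 7.24 and 6.85 FPKM in Tfam cKO, against 6.95 and 5.56 FPKM in WT, where WT 2 alone was low. Its log2 fold change was 0.16 (SE 0.17, limma adjusted p = 0.947).

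Within a library, shares do not depend on how the libraries are scaled to each other. Tgfbr1 made up 22.1% and 25.0% of the summed FPKM of the 7 type I receptors in Tfam cKO, against 20.1% and 15.6% in WT. Acvr1b made up 19.1% and 20.2% in Tfam cKO, against 21.1% and 23.2% in WT, and Bmpr1a 14.2% and 14.6%, against 15.8% and 13.2%. The rest was mostly Acvrl1, a receptor of BMP9 and BMP10, at 12.3 and 9.38 FPKM in Tfam cKO, against 10.2 and 12.2 FPKM in WT, and Acvr1, a further BMP receptor, at 9.59 and 9.07 FPKM, against 8.17 and 7.20 FPKM. Bmpr1b was at 0.719 and 0.401 FPKM in Tfam cKO, against 0.576 and 0.759 FPKM in WT, and Acvr1c was listed at 0 in both Tfam cKO libraries, against 0.00869 and 0.0256 FPKM in WT. Acvr1 made up 18.9% and 19.3% in Tfam cKO, against 18.5% and 17.1% in WT. The groups did not overlap for the shares of Tgfbr1 and Acvr1, which were higher in Tfam cKO, and of Acvr1b, which was lower, with an exact two-sided permutation p of 0.333 each. That is the smallest value that 2 against 2 libraries can give, so none of the 14 within-library ratios and shares computed could reach 0.05. In all, 7 of the 14 had separate groups. Several of the 14 share a gene or a summed total, so they are not independent of each other. Ratios and shares of other genes were not computed, so this count has nothing beside it. Whether it is higher than for other genes was not tested.

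Smad3, the receptor-activated transducer of TGF-beta and activin (chromosome 9, 63494574 to 63605801), had the closest replicates of all. It was at 9.09 and 9.07 FPKM in Tfam cKO, against 6.68 and 6.54 FPKM in WT. The groups lay apart by far more than the libraries of either group, and the Cufflinks intervals of the groups did not overlap. The log2 fold change was 0.41 (SE 0.15, 95% interval 0.05 to 0.76), and the differences were alike in both numbers, 0.39 for Tfam cKO 1 minus WT 1 and 0.42 for Tfam cKO 2 minus WT 2. Smad3 did not pass over all genes (limma adjusted p = 0.735, unadjusted 0.0297). Smad2, the other TGF-beta-activated transducer, was at 5.90 and 5.93 FPKM in Tfam cKO, against 6.07 and 5.13 FPKM in WT, and the ratio of Smad3 to Smad2 was 1.54 and 1.53 in Tfam cKO, against 1.10 and 1.28 in WT.

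Smad7, on chromosome 18, encodes the inhibitory SMAD that TGF-beta itself induces and that blocks the type I receptor. It was at 30.9 and 27.5 FPKM in Tfam cKO, against 26.4 and 35.5 FPKM in WT. As for Tgfb1, the Tfam cKO libraries lay between the WT libraries, and the log2 fold change was -0.07 (SE 0.19, limma adjusted p = 0.982). Tfam cKO 1 minus WT 1 was 0.22 and Tfam cKO 2 minus WT 2 was -0.36. Smad7 exceeded Smad3 3.40- and 3.03-fold in Tfam cKO, against 3.95- and 5.43-fold in WT, with separate groups (exact two-sided permutation p = 0.333, the smallest possible).

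**Figure D3:**
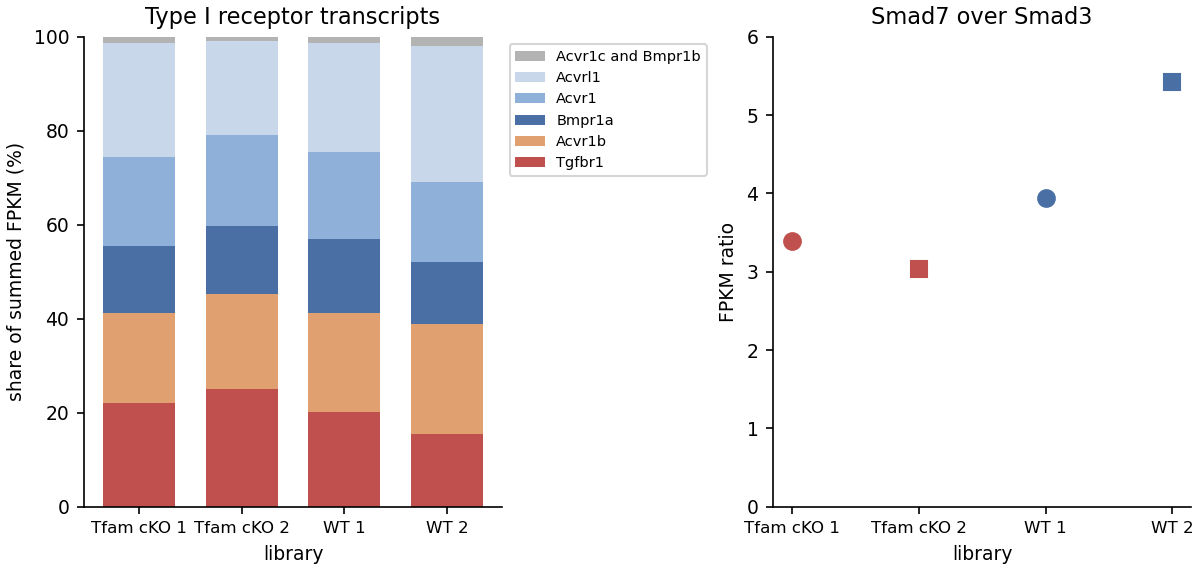
Left, share of each type I receptor in the summed FPKM (%) of the 7 such genes in each library; right, ratio of Smad7 to Smad3 FPKM, with the 2 Tfam cKO libraries (red) left of the 2 WT libraries (blue). The Tgfbr1 share is 22.1% and 25.0% in Tfam cKO, against 20.1% and 15.6% in WT, and both Tfam cKO ratios lie below both WT ratios.

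Axl encodes a receptor of the TAM family, which binds apoptotic cells through GAS6 and dampens inflammatory signalling, and TGF-beta induces it in human and mouse Langerhans cells. It lies 51422 bases from Tgfb1 in the tables (chromosome 7, 26541519 to 26573752). Axl was at 8.97 and 9.21 FPKM in Tfam cKO, against 9.28 and 8.61 FPKM in WT. The Tfam cKO libraries lay between the WT libraries, and the log2 fold change was 0.02 (SE 0.16, limma adjusted p = 0.996), with a 95% interval of -0.34 to 0.38. Axl made up 69.9% and 70.1% of the summed FPKM of the 3 TAM receptors in Tfam cKO, against 69.3% and 68.6% in WT. Tyro3 was at 3.70 and 3.72 FPKM in Tfam cKO, against 3.97 and 3.75 FPKM in WT, and Mertk at 0.157 and 0.211 FPKM, against 0.139 and 0.179 FPKM. The ligand gene Gas6 was at 47.2 and 48.5 FPKM in Tfam cKO, against 49.4 and 40.9 FPKM in WT.

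The sequence upstream of 3 of the genes is shown, Tgfbr1 and Smad3 because they had the lowest unadjusted p of the 9 and Itgb8 because it was nearly silent. Each line gives the 250 bases before the transcript start in RefSeq, build GRCm38.p6, 5′ to 3′ on the strand of the gene. Capitals mark GGGCGG, the core of the GC box bound by SP1, and CAGAC, the SMAD-binding element, on either strand. The stretches are chr4:47352972-47353221 on the plus strand for Tgfbr1, chr9:63757995-63758244 on the minus strand for Smad3 and chr12:119238277-119238526 on the minus strand for Itgb8.
Tgfbr1: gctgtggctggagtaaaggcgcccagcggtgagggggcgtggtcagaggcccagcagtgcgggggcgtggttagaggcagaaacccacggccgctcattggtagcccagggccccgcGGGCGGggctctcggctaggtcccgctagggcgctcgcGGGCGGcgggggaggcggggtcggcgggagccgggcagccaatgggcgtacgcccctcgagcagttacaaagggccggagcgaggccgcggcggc
Smad3: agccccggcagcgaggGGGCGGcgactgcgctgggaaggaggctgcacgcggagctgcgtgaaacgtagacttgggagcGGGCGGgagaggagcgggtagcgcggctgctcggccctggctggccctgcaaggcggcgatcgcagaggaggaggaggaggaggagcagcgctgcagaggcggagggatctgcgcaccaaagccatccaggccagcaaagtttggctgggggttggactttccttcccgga
Itgb8: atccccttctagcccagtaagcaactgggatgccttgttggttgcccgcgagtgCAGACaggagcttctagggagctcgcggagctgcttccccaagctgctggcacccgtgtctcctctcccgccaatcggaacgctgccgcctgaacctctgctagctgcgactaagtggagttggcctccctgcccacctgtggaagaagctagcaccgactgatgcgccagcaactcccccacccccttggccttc

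Tgfbr1 and Smad3 each held 2 matches to GGGCGG and 0 to CAGAC, whereas Itgb8 held 0 and 1. Among all 32851 RefSeq upstream stretches of this length, 32.7% held GGGCGG or its complement and 42.2% CAGAC or its complement. RefSeq stretches were found for 9 of the 10 genes on the chromosomes searched. At their first listed start, 6 held GGGCGG (Tgfb1, Tgfbr1, Smad3, Acvr1b, Bmpr1a and Axl) and 3 held CAGAC (Tgfbr2, Itgb8 and Axl). Their GC content ran from 58.4% to 78.8%, beside a median of 52.4% over all stretches. A match describes these letters only, and the libraries hold no measurement of binding.

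Beyond the 10 genes, 127 further genes of these pathways were read from 7 lists. A mean of 1 FPKM or more was reached by 86 of them and missed by 41. None of the 86 passed the test, and the lowest limma adjusted p was 0.431. At an unadjusted p below 0.05, 7 were higher in Tfam cKO (Bmp2, Gdf15, Itgb6, Plaur, Pmepa1, Fst and Id3) and 0 lower. Beside this, 5.01% of all tested genes were higher and 1.19% lower as deposited. That asymmetry over all genes was absent with equal totals (281 higher and 293 lower) and smaller after quantile normalization (338 and 245). The pathway genes were not recounted at this threshold under these scalings. Both Tfam cKO libraries lay above both WT libraries for 29 of the 86 and below for 7, beside the 25.4% and 9.75% of all tested genes. The median log2 fold change of the 86 was 0.10. The list medians below are followed by their values after quantile normalization and with equal totals, where the median of all genes was -0.01 and -0.04.

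Ligands other than Tgfb1 had a median log2 fold change of 0.36 over 6 tested genes (0.30 and 0.30 under these scalings), of which 3 were separate upward. Bmp2, a ligand of BMPR1A, was at 26.1 and 22.9 FPKM in Tfam cKO, against 18.9 and 16.7 FPKM in WT (log2 fold change 0.44, SE 0.17, limma adjusted p = 0.752). It was thus the most abundant in both groups among the BMP genes of this list, which does not hold every BMP gene. Bmp7 was at 3.02 and 2.53 FPKM in Tfam cKO, against 2.76 and 1.10 FPKM in WT (limma adjusted p = 0.894). Bmp4 was at 14.2 and 16.8 FPKM in Tfam cKO, against 14.5 and 11.6 FPKM in WT. Bmp1, whose product is a procollagen protease despite its name, was at 6.29 and 6.64 FPKM, against 6.30 and 5.37 FPKM. Gdf15, a stress-induced member of the family that signals through another receptor, was chosen after its values were seen. It was at 5.60 and 6.39 FPKM in Tfam cKO, against 4.10 and 3.69 FPKM in WT (limma adjusted p = 0.660).

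Genes of latency, processing and activation had a median log2 fold change of 0.26 over 14 tested genes (0.16 and 0.14), with 7 separate upward and 1 downward. Thbs1, which encodes thrombospondin 1, an activator of latent TGF-beta, was the highest, at 530.3 and 450.0 FPKM in Tfam cKO, against 363.7 and 380.8 FPKM in WT (log2 fold change 0.39, SE 0.20, limma adjusted p = 0.858). Furin, the protease that cleaves the TGF-beta precursor, was at 47.1 and 42.3 FPKM in Tfam cKO, against 29.6 and 36.9 FPKM in WT (limma adjusted p = 0.805). Plaur, the urokinase receptor gene, was at 102 and 59.8 FPKM, against 45.1 and 42.3 FPKM (log2 fold change 0.83, SE 0.25, limma adjusted p = 0.624), with the Tfam cKO libraries 1.16 and 0.49 above the WT libraries of the same number. Its protease ligand gene Plau was at 117 and 98.9 FPKM in Tfam cKO, against 91.6 and 89.0 FPKM in WT. Mmp9, a gelatinase gene, was at 115.1 and 105.1 FPKM in Tfam cKO, against 115.8 and 153.2 FPKM in WT, the only separate downward gene of this list.

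Other receptors and co-receptors had a median of 0.07 over 11 tested genes, with 3 separate upward and 2 downward, and its sign turned under both scalings (-0.02 and -0.04) and without WT 1 (-0.08). Cd109, which encodes a surface protein that binds TGF-beta, was at 17.6 and 17.2 FPKM in Tfam cKO, against 16.5 and 13.8 FPKM in WT. Rgmb, a BMP co-receptor gene, was at 13.6 and 12.8 FPKM, against 13.1 and 11.1 FPKM. Other Smads and transcriptional partners had a median of 0.02 over 13 tested genes, with 2 separate upward, and the sign turned under both scalings (-0.06 and -0.10) and without WT 1 or WT 2 (-0.02 and -0.04). Smad1, the BMP-activated transducer, was at 17.5 and 18.9 FPKM in Tfam cKO, against 14.6 and 14.9 FPKM in WT (log2 fold change 0.28, SE 0.16, limma adjusted p = 0.869). Smad4, the partner shared by both branches, was at 16.3 and 17.99 FPKM, against 18.5 and 17.6 FPKM. Runx3, a transcription factor gene that mouse Langerhans cells require, was at 31.9 and 38.8 FPKM in Tfam cKO, against 37.5 and 51.4 FPKM in WT, with overlapping groups. Trim33, a SMAD4-binding ubiquitin ligase, was at 6.37 and 5.83 FPKM, against 5.58 and 5.30 FPKM.

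Negative regulators and adaptors had a median of 0.12 over 22 tested genes (0.04 and 0.02), with 10 separate upward and 1 downward. Fst, which encodes the activin-binding protein follistatin, had the lowest unadjusted p of all 86 (0.00266). It was at 13.6 and 11.1 FPKM in Tfam cKO, against 7.39 and 6.82 FPKM in WT (log2 fold change 0.72, SE 0.17, limma adjusted p = 0.431). The related Fstl3 was at 7.83 and 9.70 FPKM in Tfam cKO, against 5.52 and 7.11 FPKM in WT (limma adjusted p = 0.811). Tgif1, a SMAD corepressor gene, was at 134.6 and 125.9 FPKM, against 103.6 and 101.5 FPKM (limma adjusted p = 0.857). Strap was at 52.9 and 47.7 FPKM in Tfam cKO, against 47.2 and 42.6 FPKM in WT, and Fkbp1a, which encodes a binding partner of type I receptors, at 62.9 and 50.6 FPKM, against 66.6 and 51.8 FPKM. Rnf111, which encodes the ubiquitin ligase Arkadia, was separate downward, at 8.26 and 7.91 FPKM in Tfam cKO, against 8.53 and 8.71 FPKM in WT. Pmepa1, a TGF-beta-induced inhibitor of the pathway, was chosen after its values were seen and was at 5.56 and 6.40 FPKM, against 3.83 and 3.93 FPKM (limma adjusted p = 0.655).

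Response genes had a median of 0.10 over 15 tested genes, with 4 separate upward and 1 downward. Its sign turned under both scalings (-0.02 and -0.02), and it was 0.19 without WT 1 and 0.22 without WT 2. The 2 best-expressed Id genes differed in direction. Id3 was at 212 and 195 FPKM in Tfam cKO, against 150.5 and 150.8 FPKM in WT (log2 fold change 0.43, SE 0.18, limma adjusted p = 0.804). Id2, an inhibitor of E proteins that mouse Langerhans cells require, was at 126 and 101 FPKM in Tfam cKO, against 135 and 139 FPKM in WT (log2 fold change -0.28, SE 0.19, limma adjusted p = 0.896). Id1 was at 44.7 and 36.0 FPKM in Tfam cKO, against 50.2 and 42.4 FPKM in WT, with overlapping groups. The log2 fold change was -0.20 for Id1 and -0.01 for Id4 (limma adjusted p = 0.931 and 0.996). Cdh1, the E-cadherin gene, was at 239 and 219.6 FPKM in Tfam cKO, against 193 and 167 FPKM in WT, and is also a keratinocyte transcript. Cdkn1a was at 374 and 314 FPKM, against 252 and 299.7 FPKM, and Junb at 1578 and 1304 FPKM, against 1100.4 and 1643 FPKM. The TAM list had a median of -0.01 over 5 tested genes (-0.10 and -0.13), with 0 separate upward and 2 downward. The downward genes were Tyro3 and Socs3. Socs3, which encodes a brake on cytokine signalling, was at 87.0 and 101 FPKM in Tfam cKO, against 106 and 125 FPKM in WT, and Socs1 at 22.1 and 24.3 FPKM, against 16.0 and 25.0 FPKM.

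**Figure D4:**
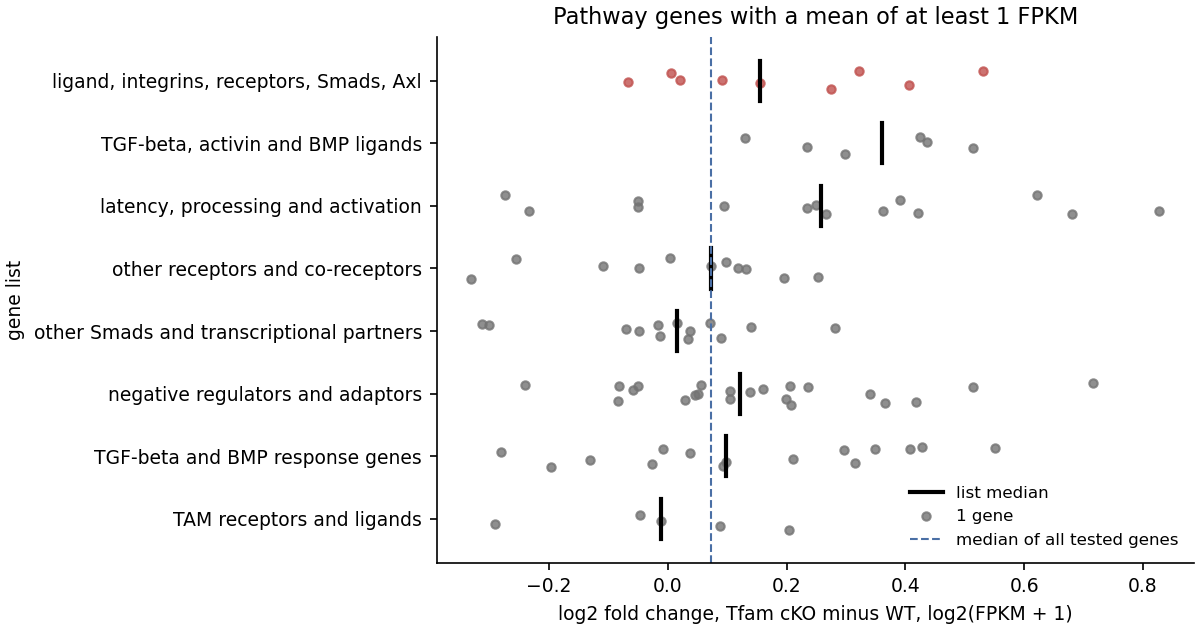
Fitted log2 fold changes (Tfam cKO minus WT, log2(FPKM + 1)) of the 9 detected genes (red) and of the tested genes of the 7 pathway lists (grey), with each list's median as a black bar and the median of all tested genes, 0.07, as a dashed line. The medians run from -0.01 for the TAM list to 0.36 for the ligands, and no point passed the test.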

How the data were processed

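RNA of sorted epidermal Langerhans cells was extracted with Trizol and made into NEBNext Ultra libraries, per the labels' protocols. The deposited FPKM carry the Cufflinks column layout, per the file headers, with a 95% interval for each estimate. CASAVA, Cufflinks and mm10 are named per the submitters' processing notes. For the aligner, the annotation and the strand setting nothing is given in the sources used here. Positions in the tables overlapped the GRCm38 gene of the same name for 11.4% of 23922 shared symbols, so they are printed as the tables give them, with the build unresolved, and RefSeq sequences were matched by symbol.

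Loci sharing a symbol were added up. The test covered the 10910 symbols whose 4-library mean reached 1 FPKM, as log2(FPKM + 1), a scale that understates changes of low genes. Tfam cKO was compared with WT with limma 3.58.1 (R 4.3.3), on genotype alone. A mean trend was used, and p-values were adjusted by Benjamini-Hochberg over all tested genes, at 0.05. Total reads are not in the tables, and the effective number of fragments was taken from the interval width. Relative depth, from the FPKM worth of 1 Itgb8 fragment, was 0.884 in Tfam cKO 1, 1.56 in Tfam cKO 2, 1.36 in WT 2 and 1 in WT 1. Ratios were tested by exact permutation in scipy 1.17.1.

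The genes and lists were chosen with earlier results of these data known. From each list the text names the 3 genes of highest level and, in each direction, the 2 of largest change among those with separate groups and a mean of at least 5 FPKM, besides family members of the 10 genes. Itgb1, Itgb6, Smad2, Bmp7, Gdf15, Pmepa1, Id1, Id4, Xist and the marker genes other than Cd207 and Epcam fall outside that rule. Alternatives tried were pseudocounts of 0.1 and 5, no filter, a filter at 5 FPKM, no mean trend, robust moderation, quantile normalization, libraries scaled to equal totals, a replicate block, the highest locus and leaving out each library.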

Additional observations from a re-analysis of the deposited data

How the results depend on the processing

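None of the 9 tested genes passed in any of the 14 alternatives, where the lowest limma adjusted p was 0.153, for Tgfbr1. Tgfbr1, Tgfbr2, Itgav, Smad3 and Bmpr1a kept a positive log2 fold change in all 14, from 0.338 to 0.722, 0.155 to 0.396, 0.186 to 0.457, 0.278 to 0.452 and 0.0173 to 0.294. The filters, no mean trend, robust moderation, the replicate block and the highest locus left these estimates unchanged. For Tgfbr1, Tgfbr2, Itgav and Smad3, with separate groups, another pseudocount or a library left out could not turn the sign. Only quantile normalization (0.443, 0.163, 0.242 and 0.320) and equal totals (0.447, 0.158, 0.226 and 0.319) could. The signs of Tgfb1, Smad7, Acvr1b and Axl turned in some alternatives. After quantile normalization and after rescaling to equal totals the log2 fold change was -0.0302 and -0.0299 for Tgfb1, -0.0753 and -0.113 for Acvr1b and -0.0625 and -0.0966 for Axl. With a library left out it ranged from -0.0969 to 0.279 for Tgfb1, -0.276 to 0.141 for Smad7, -0.0265 to 0.0387 for Acvr1b and -0.0284 to 0.0699 for Axl.

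Over all tested genes, 2 were called higher and 0 lower. At an unadjusted p below 0.05 limma gave 547 higher and 130 lower as deposited, 281 and 293 with equal totals and 338 and 245 after quantile normalization. The number higher was 1 with a pseudocount of 5, 0 without a filter (16426 genes tested), 1 with the filter at 5 FPKM (7197 genes tested) and 145 with the replicate block, and the number lower was 1 without a mean trend, 2 with robust moderation and 39 with the replicate block. Leaving out WT 1, WT 2, Tfam cKO 1 or Tfam cKO 2 gave 12, 13, 63 and 38 higher and 4, 3, 19 and 40 lower, where the spread of the single remaining library was taken from the other group. Of the pathway lists, 2 genes were called higher with the replicate block (Fst, limma adjusted p = 0.0170, and Plaur, 0.00811), and 0 to 1 with a library left out (Plaur without Tfam cKO 2, 0.0162). The causes of these differences in number were not tested. Same-numbered libraries deviated together with r = 0.255 across 10910 genes, from only 2 pairs, and the labels do not say that a number marks a shared source, so the pairing is not established. Without a filter the median was 0.0440 for the latency list, 0.121 for the ligands, 0.0109 for the other receptors and 0.00961 for the TAM list. With the filter at 5 FPKM it was 0.211 for the response genes and 0.0379 for the TAM list. The ligand median was 0.181 with a pseudocount of 5 and 0.198 without WT 2, and the latency median was 0.391 without Tfam cKO 2. With 2 libraries a group precision is limited, for Smad3, Acvr1b and Axl the counting intervals of replicates overlapped in both groups, and Itgb8, with 1 to 5 fragments, is limited by depth.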
